A study of Mus musculus with 2 samples.

Results

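The Ifi200 family is a group of mouse interferon-inducible genes whose protein products bind DNA, and 7 of its members were followed here in tumour-infiltrating CD8 T cells: Ifi203, Ifi204, Ifi206, Ifi208, Ifi209, Ifi211 and Ifi213. They were chosen by symbol, and are 7 of the 32285 genes in the count matrices. Levels were read over barcodes with at least 500 genes, under 10% mitochondrial UMIs (unique molecular identifiers, each counting 1 captured transcript), at least 1 UMI of Cd3d, Cd3e or Cd3g and at least 1 of Cd8a or Cd8b1. That rule kept 6901 of 7866 barcodes in the control library and 8164 of 10111 in the NK-depleted library.

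The study asked how natural killer (NK) cells affect CD8 T cells in a tumour. Both libraries hold live CD8+ cells sorted from MC38 tumours at day 9 after implantation and carried through the 10x Genomics 5′ chemistry. MC38 is a mouse colon carcinoma line. All mice are labelled WT, the control library is labelled PBS, and the NK-depleted library is labelled a-NK1.1 antibody. NK1.1 is a receptor of NK cells that some T cells also carry. The control library's name ends in Iso, which the labels do not explain. The labels give neither the number of mice per library nor the mice's age, and they state no dose or time for PBS or antibody. Each group is therefore 1 library, no difference between the groups has a replicate check, and treatment and library cannot be told apart. All intervals below are 95% intervals and cover counting error only.

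Ifi200 proteins belong to the PYHIN family. A HIN domain binds double-stranded DNA and, in many members, a pyrin domain joins the protein to signalling partners. Aim2, the relative that assembles an inflammasome on cytosolic DNA, and Ifi204, which has been linked to STING-dependent sensing of DNA and is often set beside human IFI16, are the best studied in mice. Type I interferon induces many of these genes in lymphoid and myeloid cells, and the cluster has expanded in mice by gene duplication, so its members resemble each other in sequence. What most of the other members do in a CD8 T cell is less well defined.

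The 7 members lie within 474 kb of chromosome 1 (GRCm38, positions 173468485 to 173942672), interleaved with the relatives Ifi214, Ifi207 and Mndal. RefSeq promoter windows (GRCm38.p6, 250 bases before to 50 after each start) were found for 6 of the 7 members, all but Ifi204. They were searched on both strands for GAAANNGAAA, the core of the interferon-stimulated response element to which interferon regulatory factors bind, and for TTCNNNGAA, the site type of STAT dimers. The response element core stood in 5 of the 6 members, 35 to 73 bases before the start, against 3.99% of the 27025 genes with a window. TTCNNNGAA stood in 0 of the 6, against 9.55% of genes, and nothing about the members is read from that. The stretches around the shared element are shown because near-identical letters recur before genes whose levels are compared below. Capitals mark the match to GAAANNGAAA, and each stretch is printed 5′ to 3′ along the gene's strand.
Ifi203, chr1:173942493-173942552, minus strand: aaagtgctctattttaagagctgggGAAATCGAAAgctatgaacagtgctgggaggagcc
Ifi206, chr1:173491324-173491383, minus strand: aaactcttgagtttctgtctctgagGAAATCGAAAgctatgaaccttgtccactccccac
Ifi208, chr1:173673582-173673641, plus strand: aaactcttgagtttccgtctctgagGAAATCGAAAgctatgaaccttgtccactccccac
Ifi213, chr1:173599311-173599370, minus strand: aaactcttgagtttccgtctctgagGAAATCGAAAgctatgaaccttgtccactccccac
Ifi211, chr1:173913049-173913108, minus strand: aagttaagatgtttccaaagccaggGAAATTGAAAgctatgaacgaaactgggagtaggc
Ifi203 has 2 windows, and the element stands in 1 of them.

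The stretches of Ifi208 and Ifi213 were identical over 60 of 60 bases, and that of Ifi206 matched them at 59. The Ifi203 stretch matched the one before Mndal at 60 of 60 bases and those of Ifi206, Ifi208 and Ifi213 at 34. These 4 members and Mndal shared the 20-base run GGAAATCGAAAGCTATGAAC, which stood in 5 genes of the 27025, all of them in this family. Ifi211 held the run with 1 substitution, C7T, counted from the run's 5′ end. Ifi209 was the matched member without GAAANNGAAA. Its best match to the run, 80 bases before its start, agreed at 16 of 20 bases, with the substitutions G2T, C13A, T14G and A18C. The stretch is shown with that match in capitals.
Ifi209, chr1:173630759-173630818, plus strand: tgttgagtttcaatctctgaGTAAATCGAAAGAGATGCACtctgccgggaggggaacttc
On either strand, 12 of the 27025 genes (0.0444%) matched the run at 16 or more bases within 250 bases before the start. Among these genes were Ifi203, Ifi206, Ifi208, Ifi209, Ifi211 and Ifi213 and the relatives Mndal, Ifi205, Ifi207 and Ifi214. The run was itself taken from the family's windows, so this share is no independent background for them. A match in letters is a description of the sequence and not evidence that a factor binds there.

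Transcripts of the members are also alike, which bears on how reads were assigned. Of all 90-base stretches in the first 600 transcript bases, the end that the 5′ chemistry reads, 93.7% were found in no other gene for Ifi209, 88.0% for Ifi213, 86.1% for Ifi203, 69.9% for Ifi208 and 66.6% for Ifi206. The share was 46.2% for Ifi211 and 31.3% for Ifi204, which share sequence with each other. Ifi211 also shares stretches with Ifi205, and the annotated span of Mndal covers Ifi211 and overlaps Ifi203 on the same strand. That span ends at position 173942491, short of the annotated 5′ end of Ifi203 at 173942672. It reaches next to the Ifi203 start whose upstream stretch is printed above (from 173942493). How reads in the overlap of Mndal and Ifi203 were assigned was not tested, so Ifi203 counts carry this limit. By the share of unique stretches, counts of Ifi204 and Ifi211 are the least certain.

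The libraries held 106462391 and 125332343 UMIs over the cells of the rule, with medians of 11444 and 12289.5 UMIs per cell in the control and NK-depleted library. Cd3 and Cd8 genes were abundant (Cd3g at 1328 and 1187 CPM, Cd8b1 at 1127 and 867 CPM, where CPM is UMIs scaled to 1e6 in all), and Cd4 and Foxp3 together stood at 0.864 and 0.503 CPM. Marker lists of other cells were low but not absent. The 8 dendritic cell markers summed to 319 and 223 CPM, the 8 macrophage and monocyte markers to 28.5 and 22.3 CPM, and the 3 NK markers to 45.6 and 69.4 CPM. Most of the NK sum was Fcer1g, at 41.7 and 64.3 CPM. Klrb1c stood at 3.70 and 5.13 CPM, and Ncr1 went the other way, at 0.169 and 0.0239 CPM. The libraries shared 391 barcodes. Of these, 151 in the control and 61 in the NK-depleted library passed the rule, 26 in both. The shared control barcodes were deep (median 27203 UMIs) and low in the family (1357 CPM against 2073 CPM in the other control cells). Those in the NK-depleted library were shallow (median 1334 UMIs) and also low in the family (800.2 CPM against 1322 CPM in the other NK-depleted cells).

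All 7 members were lower in the NK-depleted library. The family summed to 2029.97 CPM (2021.42 to 2038.54) in the control library and 1316 CPM (1310 to 1323) after NK depletion, 1.54-fold lower (1.53 to 1.55), or 31.3 and 20.2 UMIs per cell. Every member was at least 20% lower, against 11.9% of the 7624 genes with at least 10 CPM in 1 library. The log2 ratio was -0.63 for the family sum, its median over the 7 members was -0.71, and its median over those genes was -0.06. Without the shared barcodes the family was 1.57-fold lower.

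Ifi203, the most abundant member, stood at 666 CPM (661 to 671) in the control and 400.3 CPM (397 to 404) after NK depletion, with a ratio of 0.601 (0.595 to 0.608). It made up 32.8% and 30.4% of the family's UMIs. Ifi209 stood at 388 and 279 CPM, a ratio of 0.717 (0.707 to 0.728). Ifi203 therefore had the larger difference of these members, beyond counting error.

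Ifi206 stood at 287 CPM (284 to 290.2) and 209 CPM (206 to 211), and Ifi208 at 282 CPM (279 to 285) and 172 CPM (170.0 to 175). The intervals of these genes, next to each other in abundance, overlapped in the control library and not in the NK-depleted library, where the ratio of Ifi208 was 0.611 and that of Ifi206 0.728. Ifi213 stood at 225 and 133 CPM, a ratio of 0.593 (0.582 to 0.605).

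Ifi204, the member tied to STING signalling, stood at 104 CPM (102 to 106) in the control and 76.5 CPM (75.0 to 78.0) after NK depletion, with a ratio of 0.735 (0.715 to 0.755). Ifi211 was the least abundant, at 77.9 and 46.2 CPM, with a ratio of 0.593 (0.573 to 0.613). The order Ifi203, Ifi209, Ifi206, Ifi208, Ifi213, Ifi204, Ifi211 was the same in both libraries. UMI counts are per molecule and carry no length term. By size of difference, Ifi203, Ifi208, Ifi211 and Ifi213 lay between 1.64-fold and 1.69-fold lower, and Ifi204, Ifi206 and Ifi209 between 1.36-fold and 1.39-fold lower. The bar plot of members by library shows these levels.

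**Figure D1:**
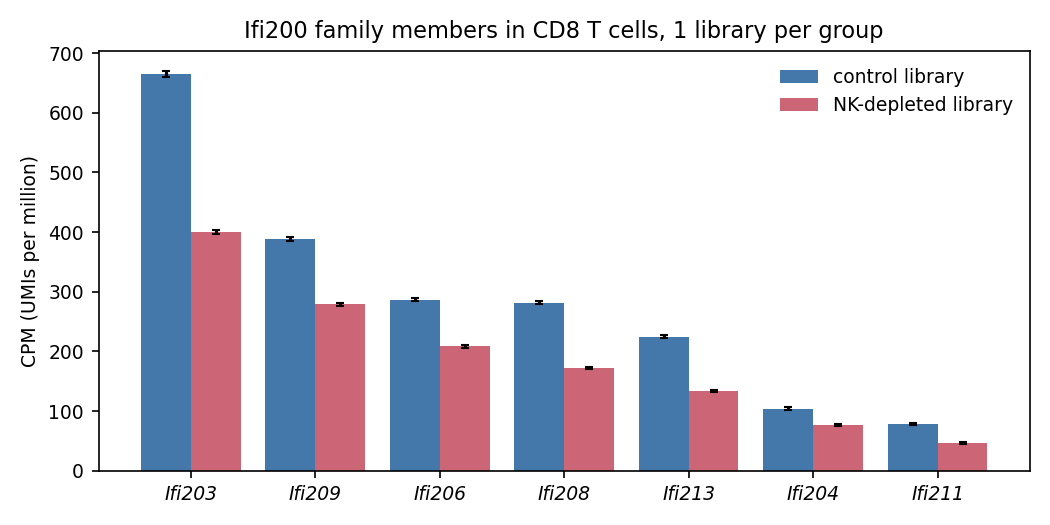
Level of each member (CPM over cells of the rule, vertical axis) in the control and NK-depleted library, 1 library per group. Bars are the values and whiskers the 95% Poisson intervals. All 7 members are lower in the NK-depleted library, from 666 to 400.3 CPM for Ifi203 and from 77.9 to 46.2 CPM for Ifi211.

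The size of the difference depended on the cells counted. Gzmk, a granzyme, and Itga4, the integrin alpha 4 chain, marked 5095 of 6901 control cells (73.8%) and 3799 of 8164 NK-depleted cells (46.5%) with at least 1 UMI of either. In those cells the family stood at 2181 and 1321 CPM, 1.65-fold lower in the NK-depleted library. In the remaining 1806 and 4365 cells it stood at 1538 and 1311 CPM, 1.17-fold lower (1.16 to 1.19). Within a library, the level with over that without either transcript was 1.42 in the control and 1.01 in the NK-depleted library. After each cell was thinned to 5500 UMIs these ratios were 1.57 (2757 and 1756 CPM) and 1.21 (1669 and 1374 CPM), so the family was higher in cells with Gzmk or Itga4 in both libraries at equal depth.

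Single members split in those cells without Gzmk and Itga4. Ifi206 stood at 208 and 210.2 CPM, Ifi208 at 184 and 175 CPM, and Ifi209 at 297 and 278 CPM, so none of these 3 was 20% lower. The ratio of Ifi206 was 1.01 (0.980 to 1.05), within counting error of 1, and at 5500 UMIs Ifi206 was 1.09-fold lower. Ifi213 was 1.21-fold lower, Ifi203 1.27-fold and Ifi204 1.35-fold. Ifi211 was 1.98-fold lower there (84.8 and 42.8 CPM), against 1.54-fold in the cells with Gzmk or Itga4. Only 3 of 7 members, Ifi203, Ifi204 and Ifi211, were at least 20% lower there, beside 8.59% of the 7530 genes tested in those cells. Detection of Gzmk or Itga4 depends on depth, but the medians of UMIs per cell were alike in the control library (11252 with, 11861 without) and 13942 and 11385 in the NK-depleted library. At 5500 UMIs the family was 1.28-fold lower in cells without either transcript, and 4 members were at least 20% lower, Ifi213 (1.35-fold) being the 4th, beside 8.58% of genes.

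**Figure D2:**
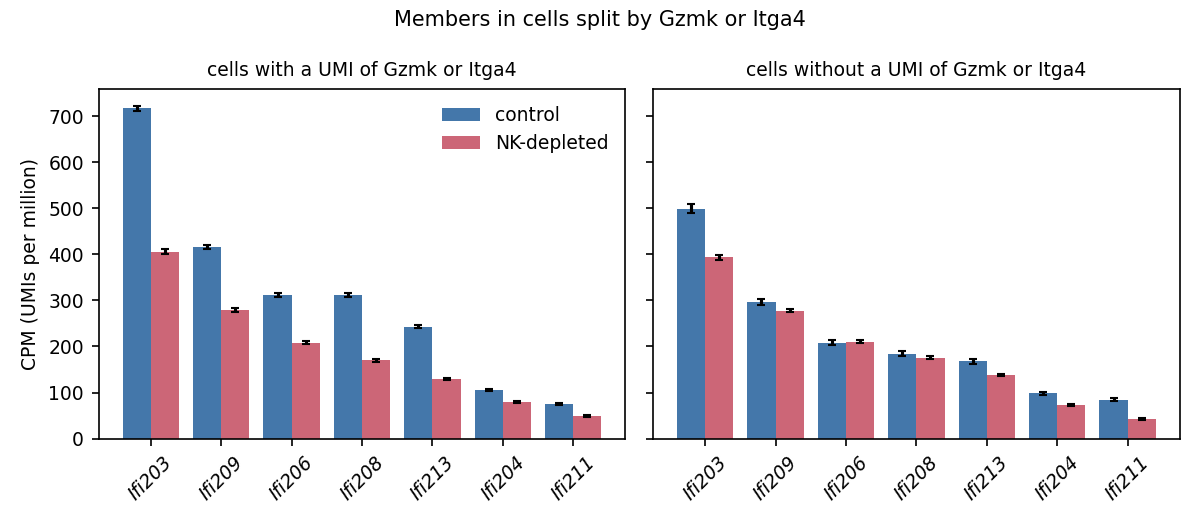
Level of each member (CPM, vertical axis) in cells with (left) and without (right) a UMI of Gzmk or Itga4, in the control and NK-depleted library. Bars are the values and whiskers 95% Poisson intervals, and the gap between libraries for Ifi206, Ifi208 and Ifi209 is far smaller in the right panel, where Ifi206 stands at 208 and 210.2 CPM.

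The members differed in how widely they were detected. At 5500 UMIs per cell (6246 control and 7384 NK-depleted cells, with 655 and 780 shallower cells left out), Ifi203 had a UMI in 88.3% of control and 78.3% of NK-depleted cells. Ifi209 was seen in 77.6% and 68.0%, Ifi206 in 71.5% and 61.8%, Ifi208 in 66.3% and 53.8%, and Ifi213 in 63.7% and 47.6%. Ifi204 was seen in 25.6% and 23.2% of cells, and Ifi211 in 21.2% and 15.1%. Without thinning, the shares were 95.8% and 90.8% for Ifi203 and 38.6% and 37.2% for Ifi204.

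UMIs of Ifi204 and Ifi211 were held by few cells. The 10% of cells with the most Ifi204 held 68.9% of its UMIs among control and 70.9% among NK-depleted cells, and for Ifi211 these shares were 72.5% and 78.9%. The top 10% of cells for Ifi203 held 31.1% and 33.1% of its UMIs, and for the other 4 members the share was between 32.3% and 41.2%. A sparser gene concentrates in fewer cells by counting alone, so the ratio of variance to mean is given too. It was 3.58 and 2.89 for Ifi204, about as high as for Ifi203 (3.67 and 2.59) at a lower mean (0.605 and 0.453 against 4.25 and 2.45 UMIs per cell), and 2.79 and 2.21 for Ifi211.

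No cell type in these libraries is known to lack these genes, so free RNA could not be gauged from such cells. The 262 control and 189 NK-depleted barcodes of good quality that lacked a Cd3 or Cd8 UMI were shallow (median 1003.5 and 1020 UMIs), and 56 and 38 of them reached 5500 UMIs. Among those, 28.6% (17.3 to 42.2) and 18.4% (7.74 to 34.3) held an Ifi204 UMI, close to the shares in CD8 T cells. Ifi206 was seen in 26.8% and 42.1% of them. These 2 sets are few cells of mixed identity.

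Of the 7 members, the median cell held 4 in each library at 5500 UMIs, and 46.3% of control and 29.1% of NK-depleted cells held 5 or more. No member was seen in 1.68% and 3.60% of cells.

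Pairwise correlation of log2(UMI + 1) over the thinned cells was highest among 5 of the members in the control library. Among Ifi203, Ifi206, Ifi208, Ifi209 and Ifi213 the 10 pairs had Pearson r of 0.36 to 0.53 in the control and 0.27 to 0.39 in the NK-depleted library. Pairs of 1 of these with Ifi204 or Ifi211 had r of 0.11 to 0.33 and 0.10 to 0.30. Ifi204 and Ifi211 correlated with each other at 0.47 and 0.35. These are descriptions over 6246 and 7384 cells of 1 library each, and reads shared between Ifi204 and Ifi211 bear on their pair. The sparse counts of Ifi204 and Ifi211 also limit r in their pairs with the other members. The ranges of the first 2 kinds of pair did not overlap in the control library but did in the NK-depleted library, where Ifi204 with Ifi209 (0.30) lay above Ifi206 with Ifi213 (0.27). These groupings were named after the values were seen.

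**Figure D3:**
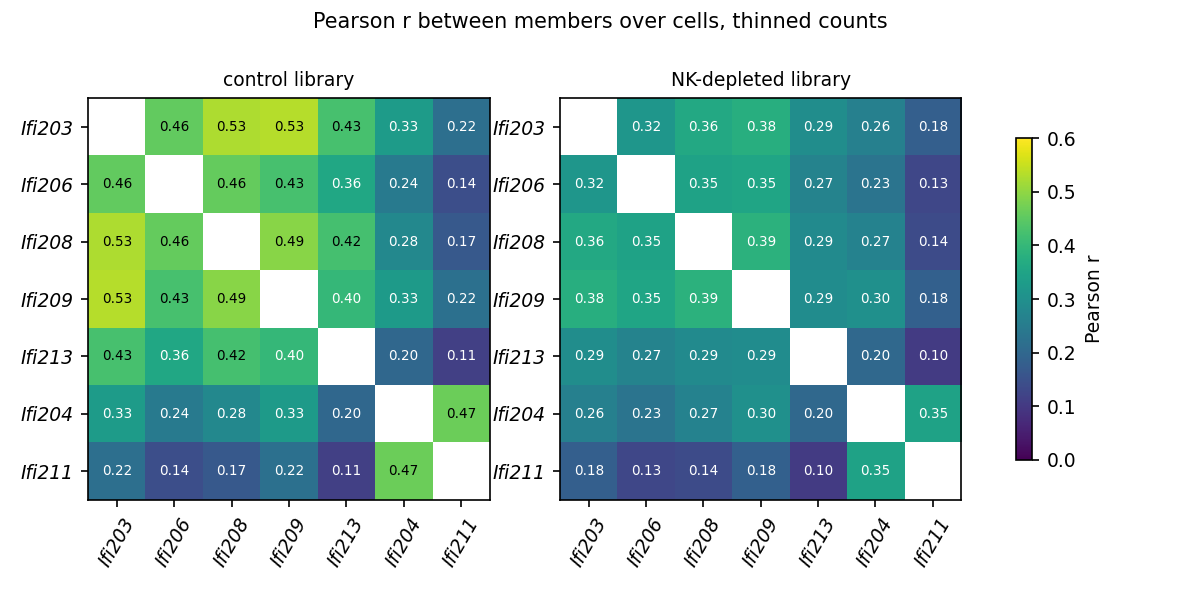
Pearson r of log2(UMI + 1) between members over cells thinned to 5500 UMIs (6246 control cells, left, and 7384 NK-depleted cells, right), with colour and printed value giving r. Ifi203, Ifi206, Ifi208, Ifi209 and Ifi213 form a block at 0.36 to 0.53 in the control library, and Ifi204 and Ifi211 pair with each other at 0.47.

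Havcr2 encodes TIM-3, a receptor of terminally exhausted T cells. Cells with a Havcr2 UMI (2658 control and 3876 NK-depleted cells) had less of the family, 1584 against 2597 CPM in the control library (ratio 0.610) and 1170.3 against 1539 CPM in the NK-depleted library (ratio 0.760). In the control library 5 of 7 members were at least 20% lower, beside 15.5% of genes tested. In the NK-depleted library the same 5 members were, beside 9.27% of genes.

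Ifi208 had the lowest of these ratios, with 191 and 397 CPM in control cells with and without Havcr2 (0.482, 0.471 to 0.493) and 133 and 232 CPM in NK-depleted cells (0.573, 0.558 to 0.589). Ifi203, Ifi206, Ifi209 and Ifi213 had ratios whose log2 lay between -0.79 and -0.70 in the control and between -0.54 and -0.34 in the NK-depleted library. Ifi204 did not share this pattern, at 105 and 103 CPM in control cells with and without Havcr2 and at 81.7 and 68.5 CPM in NK-depleted cells. Ifi211 was higher with Havcr2, at 82.0 and 72.7 CPM and at 54.8 and 33.0 CPM, and it was the 1 member at least 25% higher there in NK-depleted cells, beside 18.5% of genes.

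Cells with Havcr2 were also deeper (median 17841.5 against 9226 UMIs in the control and 16234.5 against 10038 in the NK-depleted library), and a deeper cell is more likely to show a Havcr2 UMI. At 5500 UMIs per cell the family ratio was 0.648 in the control library, with the same 5 members at least 20% lower, beside 14.8% of genes at that depth. In the NK-depleted library it was 0.859, and 3 members were still at least 20% lower, Ifi206, Ifi208 and Ifi213, beside 8.18% of genes. Ifi204 (1.36) and Ifi211 (1.64) were then at least 25% higher, beside 15.9%.

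Pdcd1 encodes PD-1, carried by activated and exhausted T cells. The family stood at 1952 and 2336 CPM in control cells with and without Pdcd1 and at 1252 and 1478 CPM in NK-depleted cells. Ifi206, Ifi208 and Ifi213 were at least 20% lower in each library, beside 11.8% of genes in the control and 8.59% in the NK-depleted library. After thinning the family ratios were 1.02 and 0.982, so the lower family sum in Pdcd1 cells was not found at equal depth. Ifi208 was still at least 20% lower with Pdcd1 in the NK-depleted library (176 and 222 CPM, 0.794). Ifi206 (0.898) and Ifi213 (0.886) were not, and no member was in the control library. The share of all genes at least 20% lower with Pdcd1 at equal depth was not counted, so nothing is read from the number of members. The sum also holds Ifi204 and Ifi211, which were higher with Pdcd1 at equal depth.

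Ifi204 and Ifi211 went the other way with Pdcd1. Ifi204 stood at 110 and 81.9 CPM in control cells with and without Pdcd1 (1.34, 1.27 to 1.41) and at 80.9 and 65.4 CPM in NK-depleted cells (1.24, 1.18 to 1.30). Ifi211 stood at 84.7 and 51.5 CPM (1.64, 1.54 to 1.75) and at 54.5 and 25.4 CPM (2.15, 2.0 to 2.31). Both were at least 25% higher in the control library, beside 15.9% of genes, and Ifi211 alone was in the NK-depleted library, beside 19.1%. At equal depth both genes were at least 25% higher in both libraries, beside 6.88% of control and 13.9% of NK-depleted genes, with ratios of 1.52 and 1.48 for Ifi204 and of 1.67 and 2.09 for Ifi211.

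Tcf7 encodes TCF-1, the factor of naive, memory and progenitor exhausted T cells. Ifi204 was lower in cells with Tcf7, at 76.0 and 118 CPM in the control (0.644, 0.616 to 0.672) and 64.0 and 82.5 CPM in the NK-depleted library (0.776, 0.741 to 0.812). Ifi211 was lower too, at 56.1 and 88.8 CPM (0.632) and 32.0 and 53.0 CPM (0.602). They were the 2 members at least 20% lower in each library, beside 11.7% of control and 12.7% of NK-depleted genes.

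Depth was alike in cells with and without Tcf7 (median 12330 and 11161 UMIs in the control, 11719 and 12546 in the NK-depleted library). At 5500 UMIs the ratios were 0.501 and 0.575 for Ifi204 and 0.475 and 0.441 for Ifi211. With Tcf7, Ifi208 was the 1 member at least 25% higher among NK-depleted cells (201 and 159 CPM, 1.27), beside 9.87% of genes, and it was under that threshold at equal depth. The family sum stood at 1897 and 2096 CPM in the control and at 1375 and 1288 CPM among NK-depleted cells. Neither difference reached these thresholds.

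Mki67 marks cycling cells. The family stood at 1697 and 2367 CPM in control cells with and without it and at 1150.2 and 1579.6 CPM in NK-depleted cells. Ifi203, Ifi206, Ifi208, Ifi209 and Ifi213 were at least 20% lower in the control library, beside 10.2% of genes, and these 5 and Ifi204 were in the NK-depleted library, beside 8.84%. Ifi211 stood at 79.9 and 75.9 CPM and at 46.6 and 45.6 CPM. Cells with Mki67 were deeper (median 18516 against 9786 and 17728.5 against 9770.5 UMIs). At equal depth the family ratios were 0.772 and 0.789, with 6 members at least 20% lower in the control, beside 8.59% of genes, and 3 in the NK-depleted library, beside 8.27%.

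**Figure D4:**
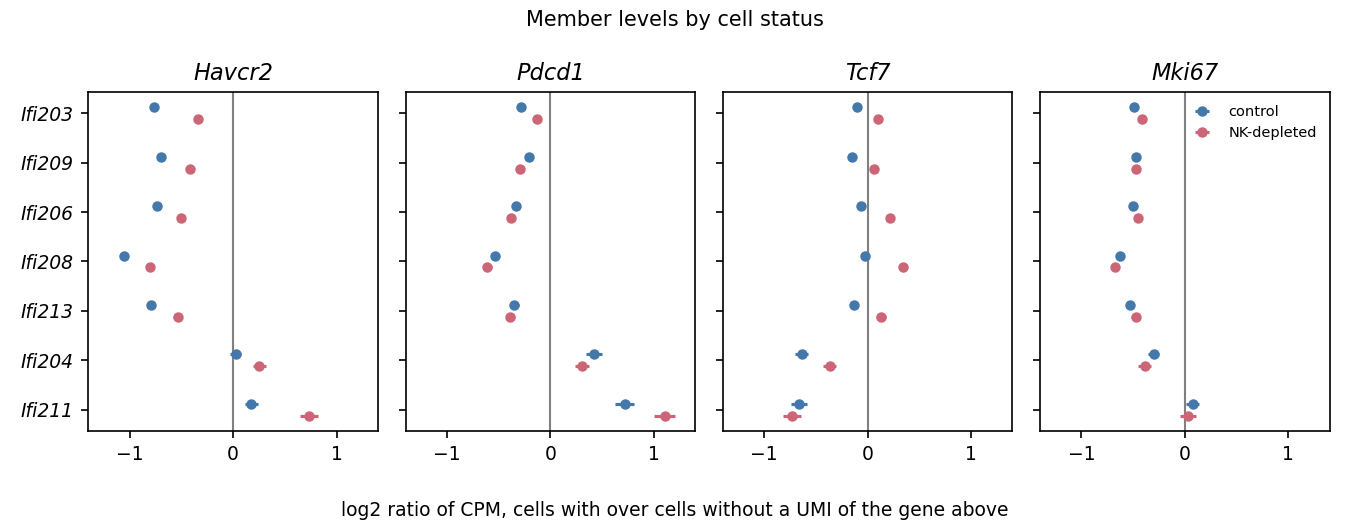
Log2 ratio of CPM in cells with over cells without a UMI of Havcr2, Pdcd1, Tcf7 or Mki67 (horizontal axes) for each member, in the control and NK-depleted library. Points are ratios and lines 95% intervals. Ifi204 and Ifi211 lie to the right of the other 5 members for Havcr2 and Pdcd1 and to their left for Tcf7.

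Some marker lists of other cells were higher in cells with Ifi204, and some were lower. The 8 dendritic cell markers summed to 457 CPM in control cells with an Ifi204 UMI and 186 CPM in cells without, and to 315 and 146 CPM among NK-depleted cells. None of the 8 was at 0. The macrophage and monocyte list summed to 35.4 and 21.8 CPM and to 29.2 and 16.5 CPM. The NK list went the other way, at 44.2 and 46.9 CPM and at 53.2 and 83.1 CPM. So did a list of 5 naive or central memory T cell genes, at 432 and 528 CPM and at 461 and 517 CPM. Ccr7 (65.6 and 53.9 CPM over all cells of the rule) stands in that list and in the dendritic list. With cells left out that held at least 2 marker genes of other cell types (721 control and 687 NK-depleted cells), Ifi204 stood at 104 and 76.5 CPM, the same as with them. Its Pdcd1 ratios were then 1.42 and 1.23, and its Tcf7 ratios 0.653 and 0.804, so that Ifi204 was no longer 20% lower with Tcf7 in the NK-depleted library, nor was it without cells with Gzmk or Itga4 (0.818). Without the cells holding other markers, the ratios of Ifi211 were 1.77 and 2.20 with Pdcd1 and 0.571 and 0.573 with Tcf7.

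Within each status the difference between libraries kept its direction. In the 8 classes of cells with or without Havcr2, Pdcd1, Tcf7 or Mki67, every member was lower in the NK-depleted library in 8 of 8, as were 45.5% of the 7624 genes. The 8 classes are overlapping splits of the same 2 libraries. The family ratio ranged from 0.593 to 0.739. Crossing the 4 genes gave 12 classes with at least 100 cells in both libraries. The family sum was lower in the NK-depleted library in 12 of 12 and at least 20% lower in 10, with ratios of 0.511 to 0.819. The share of all genes lower in 12 of 12 was not counted. Single members did not always follow the sum. In cells with Tcf7 and without Havcr2, Pdcd1 and Mki67 (832 and 1074 cells), 6 of 7 members were lower, and Ifi204 stood at 49.9 and 51.8 CPM.

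The highest control level, 3276 CPM, was in the 822 cells without a UMI of any of the 4 genes. The lowest in both libraries, 1383 and 1016 CPM, was in cells with Havcr2, Pdcd1 and Mki67 and without Tcf7. These classes share libraries and depend on depth.

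Ifit3, an antiviral protein strongly induced by type I interferon, was used as a readout of the interferon response of a cell. At 5500 UMIs the family sum correlated with Ifit3 on the log2(UMI + 1) scale at Pearson r 0.73 over 6246 control cells and 0.59 over 7384 NK-depleted cells (Spearman 0.75 and 0.60). Over 7623 genes the median r was -0.01 in each library. Ranked by r among those genes, Ifi203 was at place 6 in the control and 13 in the NK-depleted library, Ifi208 at 8 and 7, Ifi209 at 11 and 11, and Ifi206 at 18 and 15. Ifi213 stood at 37 and 38, Ifi204 at 89 and 37, and Ifi211 at 180 and 134. Ifi204 had a UMI in 25.6% and 23.2% of these cells and Ifi211 in 21.2% and 15.1%, and such sparse counts limit r. Their places are therefore not read as a weaker tie to Ifit3.

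Levels climbed across classes of cells with more Ifit3. Cells with 0, 1 to 2, 3 to 5 and 6 or more Ifit3 UMIs had 975, 1839, 2862 and 4517 CPM of the family in the control and 869, 1475, 2334 and 3444 CPM in the NK-depleted library. From the first to the last class Ifi204 differed most, 7.66-fold and 7.57-fold, from 33.8 to 259 CPM and from 35.8 to 271 CPM. Ifi208 differed by 6.45-fold and 5.14-fold. The other members lay between 3.34-fold and 4.71-fold, Ifi203 going from 341 to 1439.9 CPM in the control and from 287 to 992 CPM in the NK-depleted library.

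The libraries differed in Ifit3 itself, at 495 and 246 CPM. Cells with 6 or more Ifit3 UMIs were 22.3% of control and 8.42% of NK-depleted cells, and cells with 0 were 32.6% and 49.6%. Within the classes the family ratio between libraries was 0.891, 0.802, 0.816 and 0.763, closer to 1 than the 0.621 over all thinned cells. With the NK-depleted cells weighted to the control's distribution over the 4 classes, the ratio was 0.80.

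Members differed in the ratio that remained after this weighting. The classes are coarse and the last has no upper limit, so Ifit3 can still differ between the libraries within a class, which was not tested. The ratio went from 0.577 to 0.727 for Ifi203, from 0.555 to 0.691 for Ifi213, from 0.581 to 0.780 for Ifi208 and from 0.593 to 0.801 for Ifi211. Ifi209 (0.687 to 0.874) and Ifi206 (0.692 to 0.883) came closer to 1. Ifi204 went from 0.749 to 1.09, and stood at 115 CPM (107 to 123) in control and 150 CPM (139.8 to 160.1) in NK-depleted cells with 3 to 5 Ifit3 UMIs. In the other 3 classes the interval of its ratio included 1.

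**Figure D5:**
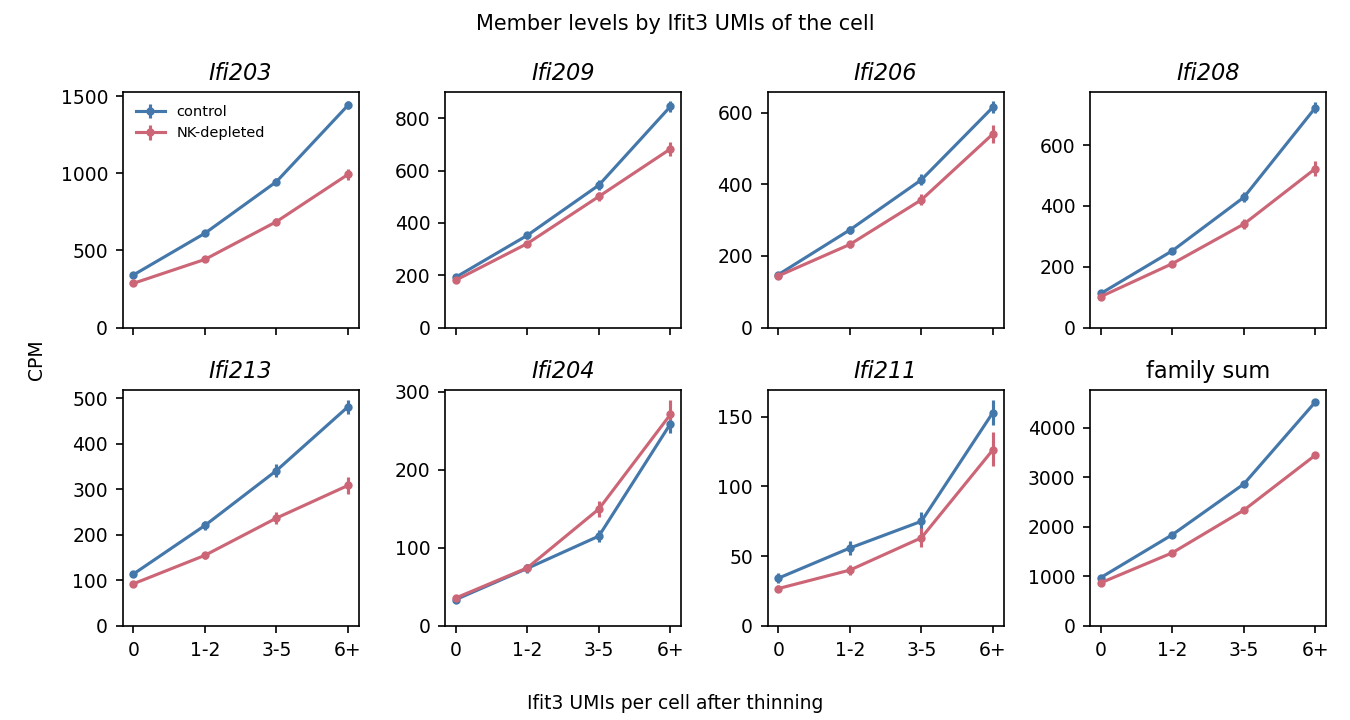
Level of each member and of the family sum (CPM, vertical axes, each from 0) in cells with 0, 1 to 2, 3 to 5 and 6 or more Ifit3 UMIs at 5500 UMIs per cell, in the control and NK-depleted library. Points are values and lines 95% Poisson intervals. Every member is higher with more Ifit3, the libraries lie apart for Ifi203 and Ifi213, and for Ifi204 the NK-depleted library is at or above the control.

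Genes most like the family were ranked over the 27 classes of at least 100 cells made by library and the 4 status genes, among 2784 genes of at least 50 CPM in 1 library. They were Sp100, a nuclear body protein (r = 0.984), then Ifit1bl1, Ifit2, Ifit3, Ifit1, Irgm1, Zbp1 and Gbp9, the last at 0.974. The median r over all ranked genes was 0.11. Of these 8, Ifit1, Ifit2, Ifit3, Ifit1bl1 and Zbp1 also stood in the lists below. Ifi204 and Ifi211 made up only 5.13% and 3.84% of the family's UMIs in the control library, and their own sum ranked other genes first. Its nearest genes were Cd8a (r = 0.947), Wipf1, Selenok, Aopep, Tram1, Cd3e, Polr1d and Prr13 (0.926), none of them in the lists below. The median r was 0.30 for that sum. The ranking of the family sum therefore does not describe these 2 members.

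Relatives outside the 7 members were fewer and partly different. Of the 6 other PYHIN genes in the matrices, Mndal, Ifi214 and Aim2 had at least 10 CPM. Mndal stood at 600.5 and 426 CPM (ratio 0.710) and Ifi214 at 212 and 154 CPM (0.726), and both were at least 20% lower. Aim2, the inflammasome sensor, stood at 63.8 and 59.2 CPM (0.927) and did not. Ifi205 and Ifi207 were below 10 CPM in both libraries, and Ifi202b had 0 UMIs, which allows up to 3 UMIs per library.

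Other genes of DNA sensing did not share the family's difference as a group. Of 18 measured genes, 3 were at least 20% lower, 0 were at least 25% higher, and the median log2 ratio was -0.06, the same as over all genes. The 3 were Samhd1, a dNTP hydrolase (396 and 221 CPM), Zbp1, a sensor of Z-form nucleic acid (454 and 334 CPM), and Irf7, a transcription factor of interferon genes (302 and 229 CPM). Trim56, a ubiquitin ligase of the STING pathway, stood at 83.7 and 67.2 CPM and just missed the threshold. The list's name covers sensors, kinases and DNA repair proteins. STING itself, listed as Sting1, was not matched by that symbol, so it is not among the 18 and its level is not given.

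The inflammasome list had 2 of 5 measured genes lower, the caspases Casp4 (23.6 and 14.9 CPM) and Casp1 (22.4 and 14.7 CPM), and a median of -0.25. Pycard, the adaptor ASC, stood at 198 and 170.0 CPM and Casp8 at 140.2 and 118 CPM. Among RNA sensors 4 of 7 were lower, with a median of -0.38. Ifih1, the RNA sensor MDA5, stood at 111 and 56.5 CPM, Dhx58 at 55.3 and 39.0 CPM, Ddx58, which encodes RIG-I, at 163 and 120.2 CPM, and Zc3hav1 at 223 and 172 CPM.

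Interferon receptors and signalling genes were lower in 9 of 16, with a median of -0.33, and this count was 3 with TMM scaling. Jak2, a kinase of cytokine receptors, stood at 68.7 and 42.5 CPM and Stat2, which carries the type I interferon signal, at 80.4 and 54.8 CPM. Of 30 other type I interferon-induced genes 26 were lower and 0 higher, with a median of -0.50. Ifit3b, an Ifit family gene, stood at 121 and 49.4 CPM, and Slfn5 and Ifit1bl1 were lower too. These counts stand beside 11.9% of all genes tested, and the lists were chosen with earlier results of these data known.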

How the data were processed

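The authors deposited UMI counts per gene and barcode from 2 libraries, made with Cell Ranger per the file headers, with Cell Ranger 6.1.2, Seurat 4.0.6 and the build mm10 named in the submitters' processing notes. The sources used here do not say how multi-mapped reads were treated. The deposited counts were used as they stand. Cells were kept by the rule given above, and no doublet caller was run. Alternatives leave out the deepest cells, or cells with at least 2 markers of the B cell, myeloid and tumour epithelium lists. Counts were summed per library or class of cells and divided by all UMIs of those cells (CPM). With 1 library per group no test was made. Levels carry exact Poisson intervals, ratios exact conditional binomial intervals and shares Clopper-Pearson intervals (95%), which cover counting error only. Genes were counted when at least 20% lower or 25% higher (a ratio and its inverse), among those with at least 10 CPM in 1 library. For shares, correlations and Ifit3 classes each cell was thinned to 5500 UMIs. TMM factors came from edgeR 4.0.16, otherwise Python 3.11.15 with numpy 2.4.6 and scipy 1.17.1 was used. On simulated counts for the 7624 genes between these libraries, the ratio intervals held the true value for 95.6% of genes. That checks the calculation of the intervals only and says nothing of spread between cells, mice or libraries. All 7 members are named, and at most 4 genes per list, those with the largest absolute log2 ratio. The members and lists were chosen with earlier results of these data known.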

Additional observations from a re-analysis of the deposited data

How the results depend on the processing

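No paired analysis was possible because each group is 1 library. The log2 ratio of the family between libraries, -0.63, kept its direction in all 12 alternatives. It was -0.61 with at least 1000 genes and under 5% mitochondrial UMIs, -0.66 without the 8% of cells with the most UMIs, -0.59 without cells with Mki67 or Top2a, -0.23 without cells with Gzmk or Itga4, -0.65 without shared barcodes (chosen after seeing the data), -0.54 with TMM factors, -0.56 with median-of-ratios factors, -0.70 as a mean over cells and -0.69 after thinning. The count of 7 members was 4 at a fold of 1.5, beside 3.02% of genes, and 3 without cells with Gzmk or Itga4, beside 8.59%. It was 7 in the other 13 alternatives. Beside that 7 stood 7.07% of genes with TMM factors, 7.92% with median-of-ratios factors, 11.9% at a minimum of 50 CPM and 29.0% at a minimum of 0 CPM. The share over all genes is not given for the remaining alternatives. Without cells with Gzmk or Itga4 the log2 ratio of Ifi206 was 0.017, within counting error of 0. The other 6 members kept their direction in 12 of 12 alternatives each.

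The log2 ratios of the family by status follow, with the control before the NK-depleted library. By Havcr2 they were -0.73 and -0.34 as a mean over cells, -0.63 and -0.22 after thinning, -0.62 and -0.29 without the 8% of cells with the most UMIs, and -0.55 and -0.22 without cells with Mki67 or Top2a. In the control library alone the Havcr2 ratio moved to -0.70 without the Cd3 and Cd8 requirement, -0.74 without cells with other markers, -0.48 without cells with Gzmk or Itga4 and -0.70 without shared barcodes. By Mki67 they were -0.42 and -0.40, -0.37 and -0.34, and -0.30 and -0.34 under the first 3 of these settings, -0.44 and -0.44 without cells with Gzmk or Itga4, and in the control alone -0.49 without cells with other markers and -0.44 without shared barcodes.

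By Pdcd1 they were -0.11 and -0.14 as a mean over cells, 0.026 and -0.026 after thinning, -0.10 and -0.13 without the 8% of cells with the most UMIs, 0.084 and -0.0093 without cells with Mki67 or Top2a, and -0.24 and -0.27 without cells with Gzmk or Itga4. The control value was -0.28 with at least 1000 genes and under 5% mitochondrial UMIs, -0.27 with at least 2 UMIs of Cd3 and Cd8 genes and -0.23 without shared barcodes. By Tcf7 they were -0.31 and -0.020 as a mean over cells, -0.25 and 0.0079 after thinning, -0.11 and 0.13 without cells with other markers, -0.38 and -0.16 without cells with Mki67 or Top2a, and -0.018 and 0.15 without cells with Gzmk or Itga4, and in the control -0.18 without the 8% of cells with the most UMIs and -0.13 without shared barcodes. Their causes were not tested.

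The family's correlation with Ifit3 was 0.65 and 0.50 on log2 CPM without thinning, 0.74 and 0.62 without cells with Mki67 or Top2a, 0.75 in the control as Spearman's rho and 0.67 there without cells with Gzmk or Itga4.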

Other observations

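Outside the rule, the barcodes of good quality without a Cd3 or Cd8 UMI held more Ifi204 per UMI than the CD8 T cells, at 284 CPM (249 to 323) in the control and 206 CPM (169 to 247) in the NK-depleted library. Ifi211 stood at 195 and 159 CPM there, and Ifi203 at 444 and 515 CPM. Ifi206 stood at 119 and 126 CPM and Ifi208 at 117 and 154 CPM, below their levels in CD8 T cells. The values rest on 830277 and 540093 UMIs of mixed cells.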
